A study of Mus musculus with 20 samples.

Results

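Cryptic 3′ splice sites that lie close to an annotated one were examined in bulk bone marrow RNA of 20 mice. A splice junction was chosen by 3 properties of its row in the junction table: its 5′ end was annotated and its 3′ end was not, it had at least 100 reads summed over the 20 mice, and its cryptic 3′ end lay 1 to 50 bp from the 3′ end of an annotated junction that starts at the same 5′ splice site. This rule found 2844 cryptic 3′ sites, among 6834 junctions with a cryptic 3′ end that reached 100 reads, 111272 such junctions at any depth and 554616 junctions in all. The use of a cryptic site was its reads as a percentage of the reads on the cryptic and the annotated junction together. The rule used the sum of the reads over all mice and no contrast between groups, although a site read in 1 group alone could reach the sum through that group. Of the 2844 sites, 1550 had at least 25 reads in every group, and in 553 a single group held over 50% of the reads.

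The mice formed 4 groups of 5. All were wild-type, lethally irradiated recipients of bone marrow from donors with a doxycycline-inducible transgene of U2AF1(S34F) or of U2AF1(WT) together with rtTA, the activator that doxycycline switches on, and marrow of several donors was pooled before transplantation. After more than 6 weeks of engraftment every mouse, controls included, received chow with 625 ppm doxycycline for 7 days and an infusion of sudemycin D6 or of vehicle over the last 5 of them. The groups were the U2AF1(WT) mice with vehicle, those with sudemycin D6, the U2AF1(S34F) mice with vehicle and those with sudemycin D6, and the transgene acts beside the endogenous *U2af1*. Per the study's methods, donors and recipients were young adults matched with each other for sex.

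The end of an intron is marked by the dinucleotide AG, preceded by a tract of pyrimidines. U2AF1 is the subunit of the U2AF heterodimer that reads this AG, and U2AF2 is the subunit that binds the pyrimidine tract. Substitution of serine 34 by phenylalanine, found in myelodysplastic syndromes and acute myeloid leukaemia, is known to alter which base is tolerated at position −3, the base just before the AG. SF3B1, which sudemycin D6 binds, belongs to the U2 small nuclear ribonucleoprotein that recognises the branch point upstream of the tract. When 2 AG dinucleotides lie close together the spliceosome has to choose one of them, and the choice lengthens or shortens the exon by the distance between them.

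The sequences below show pairs of sites described in the results, from 20 intron bases before the first AG to 5 bases past the second, on the transcribed strand of mm9 (NCBI build 37). Capitals mark base −3 and the AG of each site. In the first 5 the cryptic site is the second triplet, with C or A at −3 where the annotated site has T, and its use was higher in U2AF1(S34F) mice.

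*Anapc5*, chr5:123250598-123250661, minus strand: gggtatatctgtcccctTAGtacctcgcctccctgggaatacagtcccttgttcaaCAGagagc
*Plk4*, chr3:40610389-40610457, plus strand: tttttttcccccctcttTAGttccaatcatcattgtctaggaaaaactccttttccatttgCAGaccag
*Chfr*, chr5:110569353-110569399, plus strand: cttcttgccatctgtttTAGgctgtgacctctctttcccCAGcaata
*Srrt*, chr5:137737316-137737361, minus strand: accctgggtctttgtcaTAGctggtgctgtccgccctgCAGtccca
*Mark3*, chr12:112867153-112867225, plus strand: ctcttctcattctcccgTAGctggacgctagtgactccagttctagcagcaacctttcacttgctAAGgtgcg

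In the next 4 the bases are the other way round, with T at −3 of the cryptic site, and its use was lower in U2AF1(S34F) mice. The cryptic site is the second triplet in *Osbpl2* and *Herc1* and the first in *Man2b1* and *Birc6*.

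*Osbpl2*, chr2:179872898-179872949, plus strand: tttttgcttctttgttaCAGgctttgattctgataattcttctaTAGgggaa
*Herc1*, chr9:66298490-66298538, plus strand: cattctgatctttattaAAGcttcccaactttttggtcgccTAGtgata
*Man2b1*, chr8:87608487-87608544, plus strand: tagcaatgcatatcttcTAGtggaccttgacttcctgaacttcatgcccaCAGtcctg
*Birc6*, chr17:74993642-74993708, plus strand: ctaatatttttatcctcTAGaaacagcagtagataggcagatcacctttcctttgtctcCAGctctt

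The last 4 are the tandem site of *Adpgk*, in which the cryptic CAG follows the annotated TAG directly and yet its use was lower in U2AF1(S34F) mice, and sites whose use differed between sudemycin D6 and vehicle. The cryptic site is the second triplet except in *Fes*.

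*Adpgk*, chr9:59162518-59162545, plus strand: cctgtggttatttctgtTAGCAGgtctt
*Syne1*, chr10:5188762-5188811, plus strand: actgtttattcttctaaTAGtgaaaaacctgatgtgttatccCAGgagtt
*Itsn2*, chr12:4637423-4637476, plus strand: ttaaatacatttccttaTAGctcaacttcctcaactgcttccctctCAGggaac
*Fes*, chr7:87527278-87527337, minus strand: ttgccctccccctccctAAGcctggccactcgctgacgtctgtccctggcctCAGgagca

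The deposited junction counts summed to between 34384214 and 64813149 reads per mouse (median 52634698), of which 2026216 over all mice fell on the cryptic sites. The use of the sites in a mouse correlated with that in the other mice of its group at a mean of 0.712 to 0.781, and no mouse stood apart. The median use over the sites in a mouse was 1.32 to 1.89% and 1.39 to 2.06% in the U2AF1(WT) groups with vehicle and drug, and 1.77 to 2.25% and 1.90 to 2.20% in the U2AF1(S34F) groups. Use pooled over all reads of the sites lay the other way, at 0.545 to 0.691% and 0.53 to 0.615% with U2AF1(WT) and 0.401 to 0.498% and 0.391 to 0.584% with U2AF1(S34F), with overlap under the drug and none under vehicle. *Xist*, the transcript of the inactive X chromosome, ranged from 39145 to 78640 counts where the donor transgene was U2AF1(WT) and from 1 to 8 where it was U2AF1(S34F), and the summed counts of Y-linked genes from 0 to 4 and from 10270 to 15034, so that genotype and sex of the marrow cannot be told apart in any comparison of genotypes. With vehicle, the summed level of 12 neutrophil markers in CPM (reads scaled to the library total) lay at 67844 to 74126 for U2AF1(WT) and 86548 to 145202 for U2AF1(S34F), 6 of the 12 markers being higher and 0 lower in the latter by edgeR, and 4 were higher and 0 lower between the genotypes under sudemycin, 6 higher with mutation and drug together, and 0 called with the drug in either genotype. The 7 B-cell markers together had 14.4 to 142 CPM in any mouse. Of them 4 were lower between the genotypes under sudemycin, 7 with mutation and drug together, and 2 and 1 with the drug in U2AF1(WT) and in U2AF1(S34F) mice. Of 7 erythroid markers 3 were lower between the genotypes under sudemycin, 2 with both together and 1 with the drug in U2AF1(S34F) mice. Of 5 monocyte markers 2 were lower and 0 higher between the genotypes under vehicle, and 1 lower and 2 higher under sudemycin. With the drug in U2AF1(S34F) mice 2 were higher and 0 lower, and with both together 2 and 2. Of 5 T and NK cell markers 3 were higher and 1 lower between the genotypes under vehicle, and 0 and 2 under sudemycin. With both together 2 were higher and 2 lower, and with the drug in U2AF1(S34F) mice 0 and 1. Of 4 megakaryocyte markers 2 were lower and 0 higher with the drug in U2AF1(S34F) mice. Between the genotypes 1 was higher and 1 lower under vehicle, and 0 and 1 under sudemycin, and with both together 1 and 2. Of 4 stromal markers 1 was higher and 1 lower under vehicle, and 0 and 1 under sudemycin and with both together. Over all genes 39.5% and 36.8% were called between the genotypes under vehicle and under sudemycin, and 50.2% with both together. With the drug 3.07% were called in U2AF1(WT) and 10.8% in U2AF1(S34F) mice. The part of cell composition in the results was not tested, and in bulk RNA fewer cells of a type cannot be told apart from less RNA per cell. The liver marker *Alb* was at 0 in every mouse.

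The cryptic sites clustered just inside the exon. Of the 2844 sites, 2294 lay downstream of the annotated site, which shortens the exon, and 550 (19.3%) lay upstream, which lengthens it. The 4 commonest distances were +4 bp with 359 sites, +3 bp with 262, +5 bp with 232 and +6 bp with 170. Upstream, 79 sites lay at −3 bp. The 23 sites at 1 or 2 bp downstream were all at +2 bp and had a G at −3 in 21 cases. At that distance this base is the last of the annotated intron, so a G there follows from the annotated AG.

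**Figure D1:**
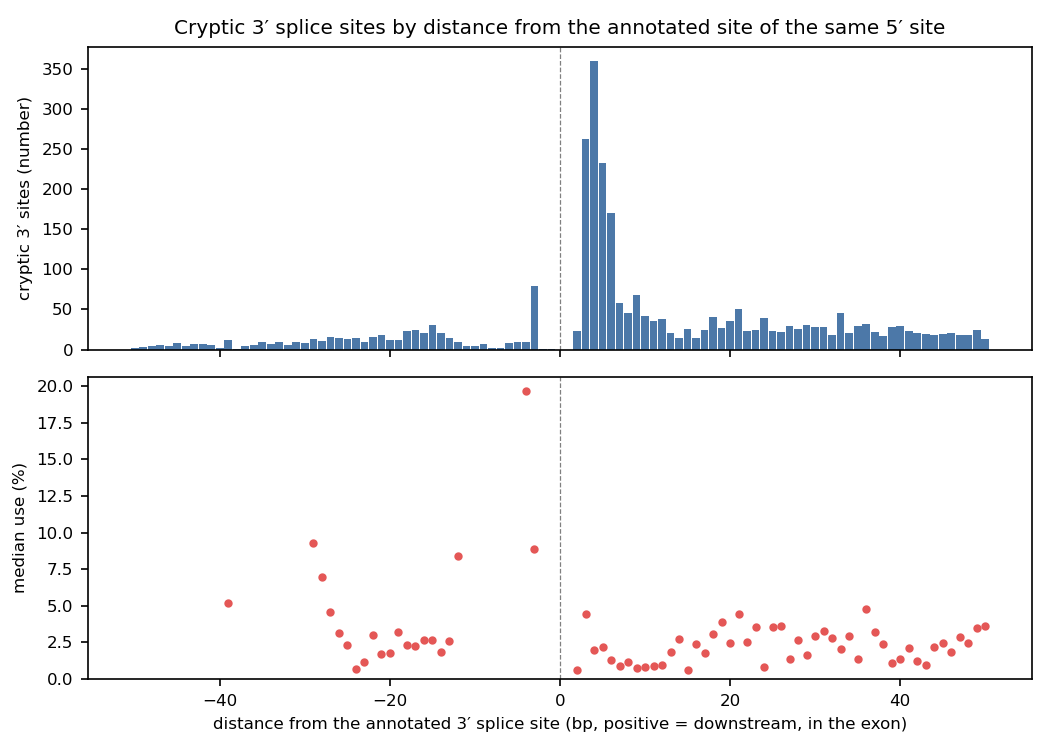
The upper panel counts the 2844 cryptic 3′ splice sites at each distance from the annotated site in bp, and the lower panel gives the median use in percent at each distance held by at least 10 sites. The counts peak at +4 bp (359 sites) and +3 bp (262 sites), and the tandem distances of −3 and +3 bp have median uses of 8.91% and 4.45%.

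Most were minor sites. Mean use over the mice had quartiles of 0.746%, 2.35% and 6.24%, with 881 sites under 1%, 457 over 10% and 77 over 50%. By summed reads, 77 had more than their annotated partner. Median depth was 240 reads for a cryptic junction over the 20 mice against 11383 for its partner, and the median SD of use within a group was 1.51 percentage points. The median use was 3.86% upstream and 2.03% downstream, 4.45% at +3 bp, 1.96% at +4 bp, 2.22% at +5 bp and 1.28% at +6 bp. These are descriptions of sites that were chosen by their reads.

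Sites that keep the reading frame had a higher median use than those that break it, but not at every distance. Where the annotated site lies in a coding part of the transcript, the 1084 sites at a multiple of 3 bp had a median use of 2.5%, with 210 over 10%, and the other 1525 had 1.96%, with 137 over 10%. The lower quartiles were 0.688% and 0.693%. Over all sites, median use was 8.91% at −3 bp and 4.45% at +3 bp. It was 1.28, 0.736, 0.965 and 0.593% at +6, +9, +12 and +15 bp, and 3.08 and 4.46% at +18 and +21 bp. An effect of the frame apart from distance was not tested. By position of the annotated site, median use was 2.14% for the 2609 in coding parts, 8.25% for 176 in 5′ UTRs, 4.8% for 20 in 3′ UTRs and 27.4% for 35 in non-coding transcripts. The cryptic sites lay in 1747 genes, 577 of which held more than 1, and used 2658 distinct 5′ sites and 2664 annotated junctions, so that some pairs share reads of the annotated junction.

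The 3 sites with most reads illustrate how uneven these values are. *S100a8*, a calcium-binding protein abundant in neutrophils, had 54618 reads at a site 26 bp downstream, beside 13975000 on the annotated junction. Its use was 0, 2.06, 0.127, 1.09 and 0% in U2AF1(WT) mice 1 to 5 with vehicle. The lowest and highest were 0 and 1.33% in the U2AF1(S34F) group with vehicle, 0.0111 and 1.42% in that with the drug, and 0 and 0.0158% in U2AF1(WT) mice with the drug. *Serbp1*, an mRNA-binding protein, had 44930 reads at +45 bp and a use of 75.9 to 87.6% in all mice. It was 80 ± 3.52% and 85.2 ± 1.61% (mean ± SD, n=5) in the 2 genotypes with vehicle, a difference of 5.2 points (edgeR FDR=0.0626) with overlap, lost in 5 of 10 fits that left out 1 mouse (FDR up to 0.184). *Adpgk*, the ADP-dependent glucokinase, had 38765 reads at +3 bp.

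Reads of rarely used sites often came from few mice. In 222 of the 2844 pairs over 50% of the reads of the cryptic junction were in 1 mouse, against 4 for the annotated junctions, and these 222 had a median use of 0.186% against 2.67% for the rest. A median of 17 of the 20 mice had reads at a site, and 759 sites had reads in all of them. Among sites with at least 100 reads on the annotated junction, use was as high as 94.3 to 97.5% for *Sept5* at +36 bp and 89.6 to 98.5% for *Mlf2* at +21 bp, where the site absent from the annotation is the one in use. Neither was called in any comparison.

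At the limits of the rule, *BC100530* (+37 bp, use 0.0777%) and *Canx* (+20 bp, 0.169%) were just inside with 100 reads, and *Rpl3* (+24 bp, 0.058%) and *Aldoa* (+8 bp, 0.0963%) just outside with 99. All 100 reads of *BC100530* were in 1 mouse. *Gnb2l1* (0.894%) and *Cpsf3l* (10.3%) lay at exactly 50 bp, and *Herc1* at −51 bp (29.8%) and *Sept7* at +51 bp (2.78%) lay 1 bp beyond it.

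The cryptic sites differed from their partners in the base at −3. C stood there in 62.2% of cryptic and 58.8% of annotated sites, A in 19.1% and 10.3%, T in 14.9% and 29.7%, and G in 3.83% and 1.16%. Of the 109 cryptic sites with G, 21 lay at +2 bp, where the distance fixes this base. The 20 bases before position −3 held a median of 13 pyrimidines at cryptic and 14 at annotated sites. The dinucleotide AG ended 2841 of the 2844 introns, but a TopHat alignment searches for canonical ends, so this is a property of the alignment as well. Only 1 cryptic site is present in GENCODE vM1, and 154 junctions also skip an exon.

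The first question was whether U2AF1(S34F) changes the use of these sites. Under vehicle, 81 of the 2718 sites tested were called (edgeR quasi-likelihood test of the ratio of cryptic to annotated reads, FDR<10%, difference in use over 1 percentage point), 49 higher and 32 lower in U2AF1(S34F) mice, with a median absolute difference of 6.42 points. Among all 12743 pairs of 3′ sites tested, near, far and annotated, 4.78% were called, 2.46% higher and 2.31% lower, beside 2.98% of the near cryptic sites. Of the 688 tested sites with at least 500 reads, 34 (4.94%) were called, 18 higher and 16 lower. The share among all pairs of that depth was not counted, so the 4.78% is not matched to it. Of the 2030 with fewer reads, 47 (2.32%) were called, 31 higher and 16 lower. When all pairs were held to a minimum of 500 reads before adjustment, 28 near cryptic sites were higher and 37 lower, so the balance of directions depended on depth. The directions among all pairs at each depth were not counted either.

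**Figure D2:**
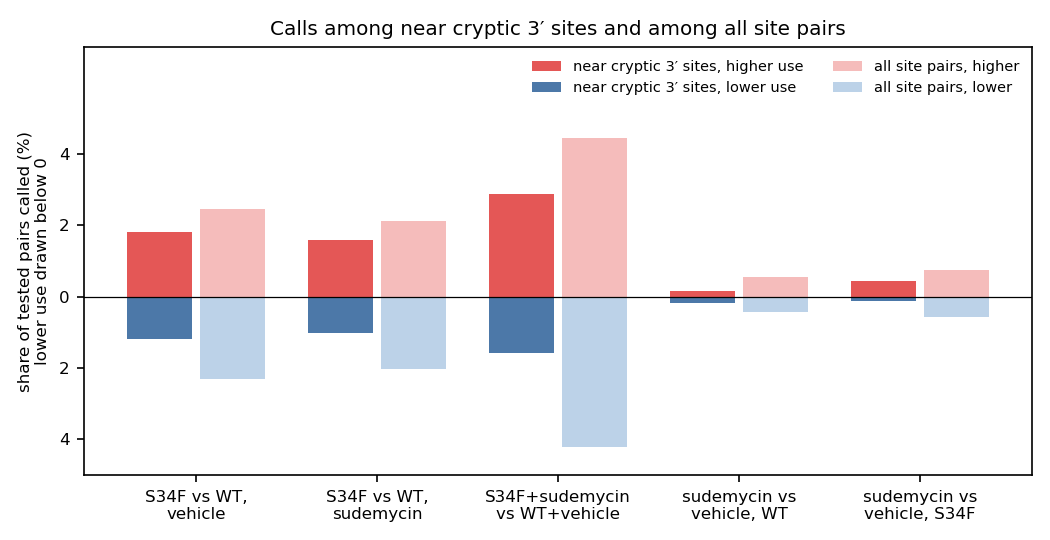
Bars give the share of tested pairs called in percent in each of 5 comparisons, with higher use above 0 and lower use below, for near cryptic 3′ sites (dark) and all pairs of 3′ sites (light). The share is 2.98% of near cryptic sites and 4.78% of all pairs for the genotypes under vehicle, and under 1% of near cryptic sites for the drug in either genotype.

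*Anapc5*, a subunit of the anaphase-promoting complex, had the smallest FDR among the 10 largest rises whose groups did not overlap. Its cryptic site 39 bp into an exon was used at 39.8, 41.0, 45.2, 41.6 and 43.5% with U2AF1(WT) and at 59.3, 51.0, 54.9, 58.9 and 56.9% with U2AF1(S34F). Every U2AF1(S34F) mouse lay above every U2AF1(WT) mouse, and the cryptic site passed from the minor to the major one. The difference was 14.0 points (FDR=0.000789), and the distance is a multiple of 3. With an edgeR dispersion estimated from the data the call was lost (FDR=0.261), and with limma too (FDR=0.118), while DESeq2 kept it. The exact two-sided permutation p was 0.00794, the smallest that 5 against 5 allows. Sites were named here only if their groups did not overlap, so the lack of overlap and this p were fixed by that choice and add no support.

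The other 9 of these 10 spanned 9.62 to 31.2 points. *Plk4*, the kinase that starts centriole duplication, was used at 0, 0, 2.5, 0 and 1.47% with U2AF1(WT) and 7.69, 5.79, 15.2, 12.6 and 13.1% with U2AF1(S34F), at a site 44 bp downstream (difference 10.1, FDR=0.00964). *Chfr*, a ubiquitin ligase of the mitotic entry checkpoint, rose from 7.45 ± 3.49% to 19.2 ± 4.63% (mean ± SD, n=5, FDR=0.0292). Its cryptic junction also skips an exon. With all annotated junctions of the 5′ site as denominator its difference was 9.46 points in place of 11.8. *Cep110*, which encodes a centriolar protein, rose from 5.26 ± 2.51% to 16.6 ± 3.15% at −28 bp (FDR=0.0102). In these 3 genes the cryptic site shifts the frame.

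Of the remaining rises, *Setdb1*, a histone H3 lysine 9 methyltransferase, went from 3.16 ± 2.99% to 16.0 ± 5.59% (FDR=0.0361), and *2310035C23Rik* from 0% in all 5 mice to 10 ± 4.42% (FDR=0.0321). *Srrt*, a partner of the nuclear cap-binding complex, went from 27.6 ± 1.94% to 38.0 ± 3.22% (FDR=0.0756). *Rufy4* (difference 31.2, FDR=0.0663), *D14Abb1e* (14.5, FDR=0.0803) and *1300018I17Rik* (9.62, FDR=0.0508) were called with wide spreads. The cryptic junction of *D14Abb1e* also skips an exon. For *Srrt*, *Rufy4*, *D14Abb1e* and *1300018I17Rik* the call was lost in 8, 6, 8 and 4 of the 10 fits that left out 1 mouse, with FDR up to 0.184, 0.142, 0.181 and 0.131.

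Of the falls, that of *Osbpl2* had among the smallest FDR values. *Osbpl2*, an oxysterol-binding protein family member, was used 27 bp downstream at 13.2, 12.5, 13.4, 21.4 and 17.1% with U2AF1(WT) and at 1.59, 2.66, 0.201, 1.51 and 0.094% with U2AF1(S34F), so that the highest U2AF1(S34F) mouse, at 2.66%, lay far below the lowest U2AF1(WT) mouse. The difference was −14.3 points (FDR=1.12e-05).

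*Adpgk* had the smallest FDR of all the named sites under vehicle. The cryptic CAG of its tandem was used at 54.0, 50.4, 50.4, 48.6 and 48.3% with U2AF1(WT) and 35.1, 33.4, 35.0, 35.0 and 31.3% with U2AF1(S34F), from 3401 to 7255 reads on the pair in each mouse (difference −16.4, FDR=9.63e-07). With an edgeR dispersion estimated from the data the call was lost (FDR=0.361), while limma (FDR=0.048) and DESeq2 kept it. The choice adds or removes 1 codon, and the site went from 50.3 ± 2.27% to 34 ± 1.66% of the junction reads. *Herc1*, a giant HECT ubiquitin ligase, fell from 65.8 ± 9.48% to 39.8 ± 9.34% at +24 bp (FDR=0.0167), which turned the annotated site from the minor into the major one. *Man2b1*, the lysosomal alpha-mannosidase, fell from 17.2 ± 2.91% to 8.61 ± 1.4% at −33 bp (FDR=0.00239), and *Birc6*, an inhibitor-of-apoptosis family ubiquitin ligase, from 32.1 ± 5.05% to 18.8 ± 2.44% at −42 bp (FDR=0.00363). In *Osbpl2*, *Adpgk*, *Herc1*, *Man2b1* and *Birc6* the distance is a multiple of 3.

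The remaining falls rested on less. A site 4 bp downstream in the 3′ UTR shared by *Gm20458* and *Sys1* was used at 12.5, 40.0, 66.7, 80 and 73.5% with U2AF1(WT) and at 0, 0, 0, 0 and 6.25% with U2AF1(S34F), a difference of −53.3 points (FDR=0.00921) on only 4 to 49 reads per mouse. It was the largest difference of any named site, and the genotypes did not overlap under either treatment. *Mtpap*, the mitochondrial poly(A) polymerase, fell by 17.7 points (FDR=0.038) and *Dennd1c* by 4.97 points (FDR=0.0222). *Cep152*, a centriole scaffold, fell by 22.9 points (FDR=0.0744), and *Smek2*, a regulatory subunit of protein phosphatase 4, fell by 5.97 points (FDR=0.0972). These calls were lost in 8 and 9 of the 10 fits without 1 mouse (FDR up to 0.193 and 0.233).

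**Figure D3:**
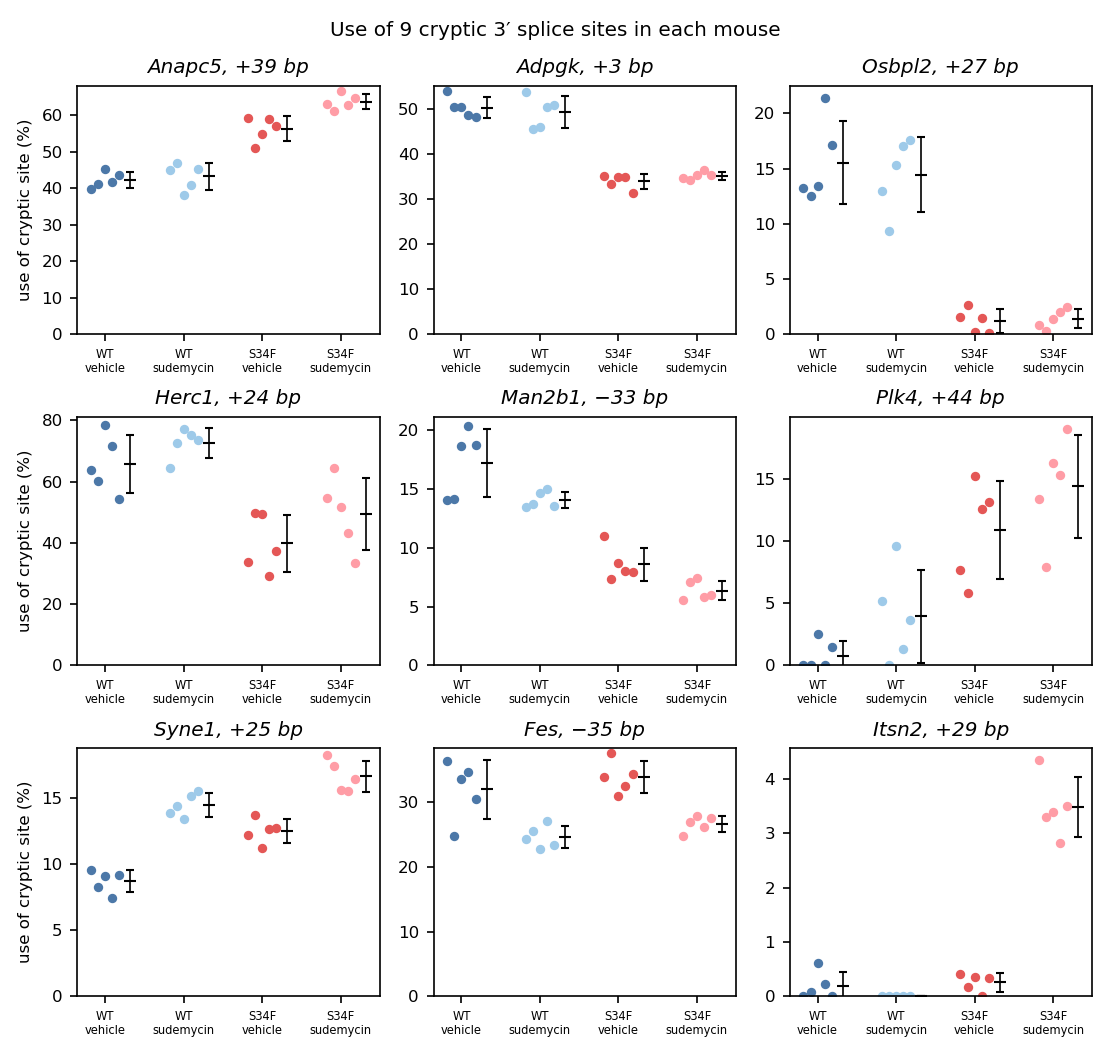
Points give the use of 9 cryptic 3′ splice sites in percent in each mouse, grouped by genotype and treatment, with the group mean and SD (n=5) as a bar beside them. *Anapc5* and *Plk4* are higher and *Adpgk*, *Osbpl2* and *Man2b1* lower in all U2AF1(S34F) mice under vehicle, while *Syne1* and *Itsn2* are higher with sudemycin D6 than with vehicle in all U2AF1(S34F) mice.

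Direction went with the base at −3. Under vehicle, 666 tested pairs had A or C at −3 of the cryptic site and T at the annotated one, and 24 of them were higher and 4 lower in U2AF1(S34F) mice. In the reverse arrangement, 280 pairs with T at the cryptic site and A or C at the annotated one, 0 were higher and 14 lower. Where both sites had C, 13 of 1002 were higher and 7 lower. Counting every tested pair, called or not, the ratio of cryptic to annotated reads was higher in U2AF1(S34F) mice in 58.7%, 42.9% and 49.4% of the 3 arrangements, with median log2 changes of the ratio of 0.23, −0.16 and −0.01. Pairs of a gene can share a junction and are not independent, so these are counts without a test.

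The same arrangements were counted in all other pairs of 3′ sites. There 139 were higher and 16 lower with A or C against T, with 69.2% of the ratios higher, and 6 were higher and 118 lower in the reverse, with 28.5% of the ratios higher. The shift of direction with the base was therefore smaller among near cryptic sites in these counts, and the difference between the sets was not tested. The 4 near cryptic sites that went against the base were *Adpgk* (+3 bp, −16.4 points), *Gda* (+4 bp, −2.8), *Emilin2* (+33 bp, −3.01) and *Ankrd12* (+11 bp, −3.53), all with C against T. *Gda*, *Emilin2* and *Ankrd12* fall outside the naming rule and were chosen after their values were seen, to complete this count.

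**Figure D4:**
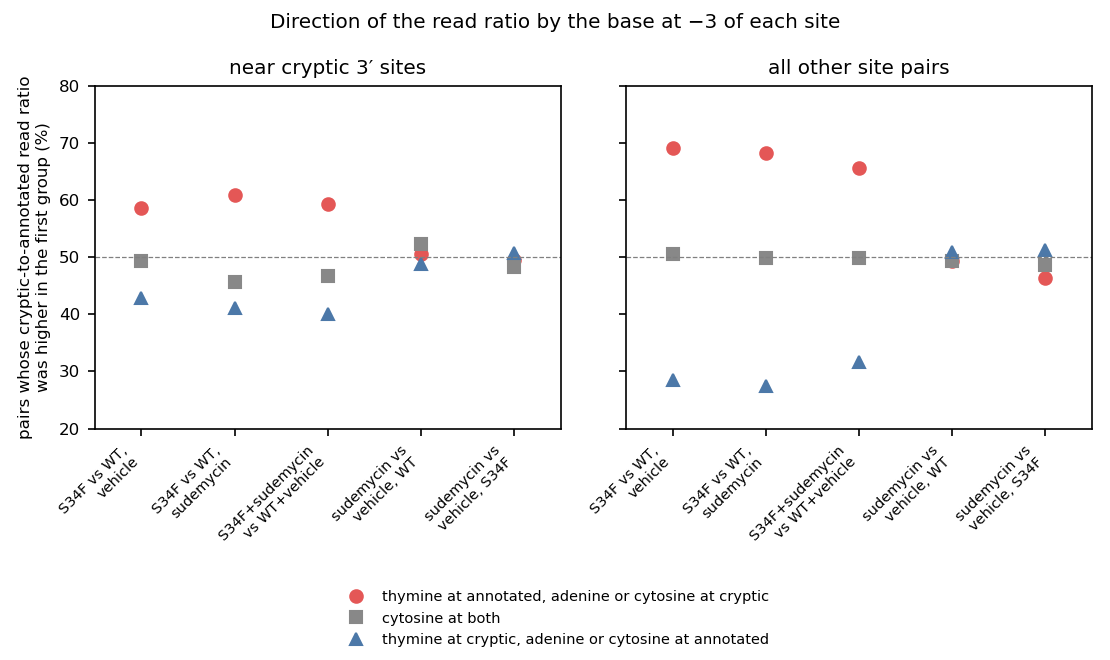
Points give the percentage of tested pairs whose ratio of cryptic to annotated reads was higher in the group named first, for near cryptic 3′ sites (left) and all other pairs (right), by the bases at −3 of both sites. In the 3 comparisons that include the genotype the near cryptic points for thymine at the annotated site lie at 58.7, 60.9 and 59.4%, those for thymine at the cryptic site at 42.9, 41.2 and 40.1%, and in the drug comparisons both lie between 48.8 and 50.7%.

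The genotypes were compared again in the 10 mice treated with sudemycin D6, which share no mouse with the comparison under vehicle. Here 71 of 2723 sites were called, 43 higher and 28 lower, or 2.61%, against 4.14% of all pairs (2.12% higher and 2.02% lower). At 500 reads or more 13 were higher and 20 lower (4.81% called), and with fewer reads 30 were higher and 8 lower (1.87%). All pairs were not split by depth, so this turn is not shown to be particular to near cryptic sites. Both comparisons called 19 sites, all in the same direction, which is 23.5% of the sites called under vehicle and 26.8% of those called under sudemycin. Pairs called in both comparisons were not counted over all pairs. Of the 79 sites called under vehicle that could be tested under sudemycin, 65 had the same sign, against 567 of 604 among all pairs. With A or C against T at −3, 22 of 665 sites were higher and 4 lower, beside 105 and 18 of 2286 other pairs. In the reverse 5 of 284 were higher and 12 lower, beside 7 and 100 of 1699.

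**Figure D5:**
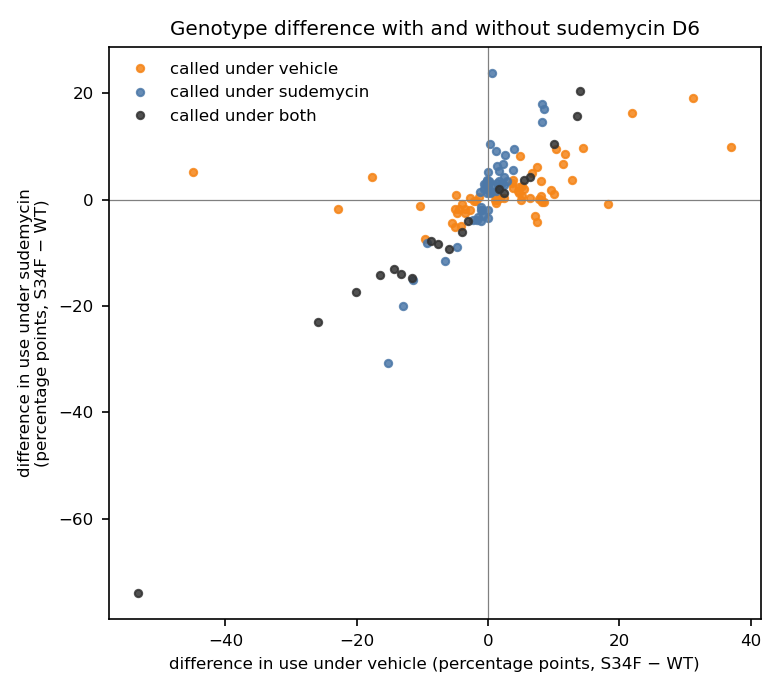
Each point is a near cryptic 3′ site called in at least 1 genotype comparison and measured in both, with its difference in use in percentage points (U2AF1(S34F) minus U2AF1(WT)) under vehicle on the x axis and under sudemycin D6 on the y axis. The 19 sites called under both lie in the lower left or upper right quadrant, and the lowest point, at −53.3 and −74.0, is the site in *Gm20458* and *Sys1*.

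Under sudemycin the site in *Anapc5* was used at 44.9, 46.9, 38.1, 40.8 and 45.2% with U2AF1(WT) and 63.1, 61.0, 66.5, 62.7 and 64.6% with U2AF1(S34F) (difference 20.4, FDR=3.28e-05). *Osbpl2* differed by −13.0 points (FDR=3.28e-05), *Adpgk* by −14.2 (FDR=9.45e-05), *Man2b1* by −7.73 (FDR=0.000422) and *Birc6* at −42 bp by −14.0 (FDR=0.00498). In these 5 genes the 2 genotypes did not overlap under either treatment. Of the other sites named under vehicle, *Herc1* (−23.1, FDR=0.0343), *Plk4* (10.4, FDR=0.0594) and *Smek2* (−9.36, FDR=0.0225) were called, *Herc1* and *Plk4* with overlap. *Mtpap* changed sign (4.32, FDR=0.605). *Cep152* (−1.76), *Dennd1c* (−1.73), *2310035C23Rik* (1.09), *1300018I17Rik* (1.75) and *Setdb1* (3.6) were not called (FDR=0.507 to 0.976). Nor were *Cep110*, *Chfr*, *Srrt*, *Rufy4* and *D14Abb1e*, at 6.71 to 19.1 points (FDR=0.135 to 0.211). The site in *Gm20458* and *Sys1*, with the limit given above, had 58.3 to 100% use with U2AF1(WT) and 0% in every mouse with U2AF1(S34F) (FDR=0.00657).

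Other sites had non-overlapping genotypes under sudemycin and not under vehicle. *Mark3*, a kinase of microtubule-associated proteins, was used 48 bp downstream at 15.2 ± 3.54% and 30.9 ± 1.83% (FDR=0.00631), and its difference under vehicle, 13.6 points, was called too (FDR=0.0341). *Dlgap5*, a mitotic spindle protein, had 7.05 ± 4.53% and 24.1 ± 8.24% (FDR=0.0196), against a difference of 8.58 under vehicle with FDR=0.121. *Foxk2*, a forkhead transcription factor, rose by 17.9 points at a tandem site +3 bp (FDR=0.0323), and *Hmgn2*, a nucleosome-binding protein, by 23.8 (FDR=0.0192) from values that ranged from 1.64 to 42.5% among U2AF1(S34F) mice. Without mouse 9 of the sudemycin-treated U2AF1(WT) group *Hmgn2* had FDR=0.153. Under vehicle *Foxk2* differed by 8.2 points (FDR=0.362) and *Hmgn2* by 0.66 (FDR=0.98), with *Hmgn2* at 0 to 51.4% in U2AF1(WT) mice. *Ints8*, an Integrator subunit, differed by −20 points (FDR=0.0138), *BC018473* by −17.4 (FDR=0.0151) and *Rnf111*, a SUMO-targeted ubiquitin ligase, by −14.7 (FDR=0.0324). Under vehicle the differences of these 3 were −13.0, −20.1 and −11.6 points (FDR=0.183, 0.0341 and 0.0663). The values of *BC018473* and *Hmgn2* depend on the annotated partner: with all annotated junctions of the 5′ site as denominator *BC018473* differed by −2.16 points under sudemycin and −2.3 under vehicle, where the call was lost, and *Hmgn2* by 13.8 under sudemycin.

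Whether the drug changes the use of these sites was asked within each genotype. In U2AF1(WT) mice 9 of 2663 sites were called, 4 higher and 5 lower under sudemycin, or 0.338%, against 0.975% of all pairs (0.555% higher, 0.42% lower). In U2AF1(S34F) mice 15 of 2719 were called, 12 higher and 3 lower, or 0.552%, against 1.31% of all pairs (0.748% higher, 0.567% lower). The sites called in both genotypes were those of *Syne1* and *Fes*. By the base at −3, in U2AF1(S34F) mice 5 of 673 sites with A or C against T were higher and 0 lower, and 0 of 280 in the reverse were called, beside 17 higher and 19 lower of 2284 other pairs and 18 and 12 of 1683. In U2AF1(S34F) mice the ratio was higher in 49.5% of pairs with A or C against T and in 50.7% of the reverse. For U2AF1(WT) the shares were 50.6% and 48.8%, with 1 higher and 2 lower called of 631 and 0 higher and 1 lower of 281.

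*Syne1*, which encodes nesprin-1 of the nuclear envelope, was called with the drug in both genotypes without overlap in either. Its site 25 bp downstream was used at 9.5, 8.26, 9.09, 7.42 and 9.15% with vehicle and at 13.8, 14.4, 13.4, 15.1 and 15.5% with sudemycin in U2AF1(WT) mice. In U2AF1(S34F) mice it was used at 12.2, 13.7, 11.2, 12.6 and 12.7% with vehicle and 18.2, 17.4, 15.6, 15.5 and 16.4% with sudemycin. Every treated mouse lay above every vehicle mouse of its genotype, and use was higher by 5.74 points (FDR=0.00399) and 4.16 points (FDR=0.0293). Without mouse 2 of the sudemycin-treated U2AF1(S34F) group the second had FDR=0.101. DESeq2 kept both calls. With an edgeR dispersion estimated from the data both were lost (FDR=0.825 and 0.73), and with limma too (FDR=0.367 and 0.391). The genotypes differed under vehicle by 3.78 points (FDR=0.0222), and the C at −3 of the cryptic site stands against T at the annotated one.

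*Fes*, a tyrosine kinase of myeloid cells, moved the other way. Its site 35 bp upstream was used at 36.3, 24.7, 33.6, 34.6 and 30.5% with vehicle and at 24.3, 25.6, 22.8, 27.1 and 23.3% with sudemycin in U2AF1(WT) mice, and at 33.8, 37.6, 31.0, 32.5 and 34.3% and 24.7, 26.9, 27.8, 26.2 and 27.6% in U2AF1(S34F) mice. Among U2AF1(WT) mice 1 vehicle value lay inside the range of the treated group, and among U2AF1(S34F) mice there was no overlap. The fall was 7.32 points in U2AF1(WT) mice (FDR=0.0956), a call lost in 9 of 10 fits without 1 mouse (FDR up to 0.261), and 7.20 points in U2AF1(S34F) mice (FDR=0.0176), a call kept in every such fit. With an edgeR dispersion estimated from the data both calls were lost (FDR=0.914 and 0.652), and with limma too (FDR=0.584 and 0.355). DESeq2 kept only the call in U2AF1(S34F) mice (FDR=0.145 and 0.00248).

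Several sites were called with the drug in 1 genotype. *Itsn2*, an endocytic scaffold protein, had 0.421, 0.172, 0.35, 0 and 0.348% with vehicle and 4.35, 3.31, 3.4, 2.83 and 3.5% with sudemycin in U2AF1(S34F) mice (FDR=0.000956), and 0% in all sudemycin-treated U2AF1(WT) mice. Of its 235 reads 214 were in sudemycin-treated U2AF1(S34F) mice. *Cep350*, a centrosomal protein, had at most 1.45% in the other 3 groups and 5.57 ± 3.21% in sudemycin-treated U2AF1(S34F) mice (FDR=0.0321), with 87 of its 109 reads in that group. Both sites reached 100 reads through the group in which they are high, so their tests are not independent of the rule and are given as a description. *Birc6* at +18 bp, with C at −3 of both sites, went from 8.81 ± 1.71% to 16.3 ± 2.36% in U2AF1(S34F) mice (FDR=0.03) and from 10.6 ± 5.11% to 16.6 ± 1.79% in U2AF1(WT) mice (FDR=0.283). *Anapc5* rose by 7.36 points with the drug in U2AF1(S34F) mice (FDR=0.0828) and *Rab44* fell by 19.9 (FDR=0.0665), calls lost in 7 and 8 of 10 fits without 1 mouse (FDR up to 0.218 and 0.179).

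In U2AF1(WT) mice *Cep57*, a centrosomal protein, rose with the drug from 0.948 ± 1.05% to 12.2 ± 8.3% (FDR=0.0874) and *Mtpap* fell from 33.3 ± 8.66% to 11.9 ± 4.8% (FDR=0.0881), and each call was lost in 9 of 10 fits without 1 mouse (FDR up to 0.238 and 0.211). *Fmnl1*, a formin of haematopoietic cells, rose from 0.0644 ± 0.0943% to 1.39 ± 0.645% (FDR=0.0439), lost in 4 such fits (FDR up to 0.118). The corresponding differences in U2AF1(S34F) mice were −0.489, 0.625 and 0.42 points, none called.

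A difference between the genotypes in the response to the drug was tested directly. The interaction of genotype and drug was called at 0 of the 2835 sites tested by edgeR (smallest FDR=0.868) and at 0.0% of all 12966 pairs. An unadjusted p under 0.05 was found at 195 sites, or 6.88%, beside 5.14% of all pairs. DESeq2 called 13 sites, and limma 0. A response called in 1 genotype alone is thus not shown to be particular to it, *Itsn2* and *Cep350* included.

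With mutation and drug together, against vehicle-treated U2AF1(WT) mice, 121 of 2701 sites were called, 78 higher and 43 lower, or 4.48%, against 8.67% of all pairs (4.45% higher, 4.21% lower). This comparison shares its mice with the others. At 500 reads or more 20 were higher and 25 lower (6.59% called), and with fewer reads 58 were higher and 18 lower (3.77%). All pairs were not split by depth here either. With A or C against T at −3, 42 of 667 were higher and 8 lower, beside 219 and 45 of 2291 other pairs, and in the reverse 1 of 282 was higher and 13 lower, beside 29 and 186 of 1700. *Anapc5* differed by 21.3 points (FDR=1.02e-06), *Syne1* by 7.93 (FDR=1.7e-05), *Plk4* by 13.6 (FDR=0.000723), *Dlgap5* by 16.5 (FDR=0.0136) and *Rufy4* by 43.6 (FDR=0.00676). *Osbpl2* differed by −14.1 points (FDR=2.57e-06), *Man2b1* by −10.9 (FDR=5.02e-05) and *Hcfc1r1*, in which the cryptic site is the major one, by −13.3 (FDR=0.037).

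Over all 5 comparisons 209 of the 2844 sites were called at least once, and 11 could be tested in none. How many of all pairs were called at least once was not counted. In each comparison a smaller share of these sites than of all pairs was called. The numbers rest on the test. With an edgeR dispersion estimated from the data in place of 0 the calls were 15, 14, 42, 0 and 2 for mutant against WT under vehicle and under sudemycin, mutation and drug together, and the drug in U2AF1(WT) and in U2AF1(S34F) mice, and with DESeq2 they were 191, 183, 240, 58 and 57. Under limma, DESeq2 and the estimated dispersion alike, 5 of the 26 named sites called under vehicle stayed called: *Osbpl2*, *Plk4*, *Dennd1c*, *2310035C23Rik* and the site in *Gm20458* and *Sys1*. Of these, *Dennd1c*, *2310035C23Rik* and the site in *Gm20458* and *Sys1* had under 100 reads outside the group with most reads. So did *1300018I17Rik*, *Foxk2*, *Cep350* and *Itsn2*, 7 of the 40 named sites with a call, and for these the rule and the contrast are not independent. The same tools alike kept 7 of 20 named calls between the genotypes under sudemycin and 11 of 24 with both together. For the drug they kept 0 of 5 in U2AF1(WT) mice and 1 of 7 in U2AF1(S34F) mice, that of *Itsn2*, which has this limit.

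Without mouse 11 of the vehicle-treated U2AF1(S34F) group the count for the genotypes under vehicle was 46, and under sudemycin it was 45 and 43 without mouse 9 or 12 of the sudemycin-treated U2AF1(S34F) group. For the drug in U2AF1(S34F) mice it was 8 without mouse 9 of the treated group. For the drug in U2AF1(WT) mice it was 4 or 5 without mouse 8, 9, 10 or 12 of the treated group or mouse 1 or 5 of the vehicle group.

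Total gene expression of the host genes was examined beside the splice sites. Across all genes 39.5% were called between the genotypes under vehicle and 36.8% under sudemycin. With the drug 3.07% were called for U2AF1(WT) and 10.8% for U2AF1(S34F), and 50.2% with both together (edgeR, FDR<10%). Of the 76 tested host genes of sites called under vehicle, 16 were higher and 14 lower in U2AF1(S34F) mice, and of 15 host genes of sites called with the drug in U2AF1(S34F) mice 1 was higher and 0 lower. *Anapc5*, *Osbpl2* and *Herc1* had log2 fold changes of 0.28, 0.17 and −0.02 between the genotypes under vehicle (FDR=0.094, 0.229 and 0.871), and *Plk4* 0.33 (FDR=0.0194).

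The factors that recognise the 3′ splice site were counted as a list. Of 39 genes, 36 were measured and tested, and under vehicle 8 were higher and 9 lower in U2AF1(S34F) mice, with a median log2 fold change of 0.03 against 0.0 over all genes. These are 17 of 36 called, where 39.5% of all genes were called. *U2af1* had 36.1 ± 1.39 and 51.1 ± 2.98 CPM (log2 fold change 0.49, FDR=0.000294), a count that does not separate the transgene from the endogenous gene. *Sf1*, the branch point-binding protein, fell by 0.67 on the log2 scale (FDR=0.000222), *Sf3a2* by 0.74 (FDR=0.00329) and *U2af2* by 0.35 (FDR=0.00449). With the drug, *Sf3b3*, a partner of SF3B1, was the 1 gene called in U2AF1(WT) mice (0.61, FDR=0.0136) and rose in U2AF1(S34F) mice (0.54, FDR=0.00123), where 7 of the list were higher and 2 lower. Under sudemycin 7 were higher and 5 lower between the genotypes, and with both together 15 were higher and 3 lower. The shares of all genes called were 3.07% and 10.8% with the drug in U2AF1(WT) and U2AF1(S34F) mice. They were 36.8% between the genotypes under sudemycin and 50.2% with both together.

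The transcripts of these factors held 12 of the cryptic sites, in 8 genes, with a median use of 4.5%. Over the 5 comparisons edgeR gave 54 tests, 9 with an unadjusted p under 0.05 and 2 called, both with mutation and drug together, and DESeq2 called 4. Among all pairs, 10.2 to 20.1% had an unadjusted p under 0.05, depending on the comparison. *Hnrnpc*, a protein that competes with U2AF2 for uridine tracts, fell from 35.3 ± 3.37% to 28.9 ± 1.37% at +21 bp (FDR=0.0464), and *Sf3b2*, a component of SF3B, went from 0.277 ± 0.167% to 1.5 ± 0.759% at +27 bp (FDR=0.065). The first call was lost without mouse 6 of the sudemycin-treated U2AF1(S34F) group or mouse 5 of the vehicle-treated U2AF1(WT) group (FDR up to 0.125), the second in 6 of 10 such fits (FDR up to 0.135). The commonest site of *Sf3b1*, at +4 bp, was used at 5.12% on average, with differences of −1.29 and −1.71 points under the drug for U2AF1(WT) and U2AF1(S34F) (FDR=0.67 and 0.644). Of 24 sites in 16 splicing regulators and 6 sites in 3 genes mutated in myeloid neoplasms, edgeR and DESeq2 called 0 in any comparison, with 11 of 105 and 1 of 24 tests at an unadjusted p under 0.05. The 10.2 to 20.1% of all pairs is the background for these counts too.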

How the data were processed

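RNA was measured in bulk marrow of 20 mice, 4 groups of 5 by the labels. Per the study's methods and processing notes, the authors aligned stranded paired reads of 126 bp from RNA depleted of ribosomal RNA with TopHat2 2.0.8 to mm9, and deposited counts of reads per splice junction (the number on each of 554616 junctions) and per gene (37620 genes), neither normalized. The program that counted genes is not given in the sources used here. The column of skipped exons was read as a label. Partners, distances and sequences were computed in Python 3.11.15 (pandas 2.3.3, pysam 0.24.0) with GENCODE vM1.

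Every pair of 3′ sites of a 5′ site was tested with edgeR 4.0.16 in R 4.3.3 (1 coefficient per mouse, dispersion 0, robust quasi-likelihood, at least 20 reads on each junction over the 10 mice), with Benjamini-Hochberg adjustment over all pairs. Each comparison used its own 10 mice, and the interaction all 20. Genes were tested with edgeR after TMM scaling. Alternatives were an estimated dispersion, limma 3.58.1 (pseudocount 0.5), DESeq2 1.42.0, other minimums, limits and denominators, and leaving out each mouse. The fits were tested on simulated data.

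The members, the gene lists and the form of the test were chosen with earlier results of these data known, and the dispersion of 0 was chosen in an earlier analysis after its counts of calls had been seen. Named sites were the 10 largest rises and falls between the genotypes under vehicle and 5 each in the other comparisons, among called sites whose groups did not overlap and with 5 or more reads per mouse on average in the better-read group, plus the 3 with most reads, the 3 with the highest use among those whose annotated junction had at least 100 reads, those nearest the limits of the rule and those called in 3 gene lists. One site that the rule names is not reported here. Nothing says that mice of a group had separate donor pools, so p-values measure the spread between recipients.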

Additional observations from a re-analysis of the deposited data

Results flagged for a closer look

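Among 149 groups of 5 mice at 36 named sites, 10 held a mouse that stood apart from the other 4 by a Dixon test, and chance flags about 1 group in 20. The highest mouse stood apart in 9 of them. In *2310035C23Rik* (+49 bp) it was mouse 10 of the sudemycin-treated U2AF1(WT) group with 13.1%, against 3.51% in the next. In *Birc6* (+18 bp) it was mouse 1 of the vehicle-treated U2AF1(WT) group with 19.3% (next 9.84%) and mouse 1 of the vehicle-treated U2AF1(S34F) group with 11.8% (next 8.57%). *Dlgap5* (+36 bp) reached 38.6% in mouse 12 of the sudemycin-treated U2AF1(S34F) group, against 22.5%, and *Ints8* (+31 bp) 36.8% in mouse 5 of the vehicle-treated U2AF1(S34F) group, against 19.5%. *Fmnl1* (+25 bp) had 2.69% in mouse 3 of that group, against 0.474%. *Foxk2* (+3 bp) had 7.58% in mouse 8 and *Hmgn2* (+9 bp) 1.41% in mouse 9 of the sudemycin-treated U2AF1(WT) group, and the site in *Gm20458* and *Sys1* (+4 bp) had 6.25% in mouse 11 of the vehicle-treated U2AF1(S34F) group, where the other 4 were at 0. The lowest mouse stood apart in *D14Abb1e* (+34 bp), with 6.38% in mouse 12 of the sudemycin-treated U2AF1(S34F) group against 15.2%. What sets these mice apart was not tested.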

How the results depend on the processing

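The counts of called sites depended most on the tool, in the order genotypes under vehicle, genotypes under sudemycin, both together, drug in U2AF1(WT) and drug in U2AF1(S34F) mice. They were 81, 71, 121, 9 and 15 as reported, 15, 14, 42, 0 and 2 with the dispersion estimated by edgeR, 41, 32, 80, 0 and 4 with limma on the log2 ratio, and 191, 183, 240, 58 and 57 with DESeq2, which alone called interactions (13). At a FDR under 5% they were 38, 38, 72, 3 and 7. A difference in use over 5 percentage points left 49, 33, 61 and 6 in all but the drug in U2AF1(WT) mice. Sites within 25 bp gave 33, 42, 55 and 7 (drug in U2AF1(S34F) mice). A minimum of 20 summed reads in place of 100, with more pairs to adjust over, gave 53 and 46 for the genotypes and 9 for the drug in U2AF1(S34F) mice, and one of 500 gave 73 for both together and 4 and 7 for the drug. One model of all 20 mice gave 25 for the drug in U2AF1(WT) mice. Apart from how each was built, the cause of these changes was not tested. Leaving out 1 mouse gave 46 to 72, 43 to 63, 86 to 125, 4 to 9 and 8 to 16 calls, 0 to 0 interactions, and 49 to 67 calls of 3′ splice site factor genes, of which 57 were reported. No named difference changed sign under an alternative, but the majority direction of the calls did. It turned to 28 higher and 37 lower for the genotypes under vehicle and 28 and 45 for both together at a minimum of 500 reads, and to 16 and 17 for the genotypes under sudemycin at over 5 points. For the drug in U2AF1(WT) mice, 4 higher and 5 lower as reported, it was 34 and 24 with DESeq2, 13 and 12 with 1 model of all mice, 2 and 1 at a FDR under 5%, and 6 and 1, 3 and 1, 3 and 2, and 3 and 1 without mouse 6, 8, 9 or 12 of the treated group.

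The replicate numbers shared by the genotypes, 3 under vehicle and 4 under sudemycin, did not pair the mice: the correlations of same-numbered mice were −0.0129 to 0.00387 and −0.0422 to 0.0112. A fit with the number as a block called 131 and 158 sites, and the same mice without the block 9 and 35. The other comparisons share fewer than 2 numbers, and no paired analysis was possible for them. The median site had 240 reads over the 20 mice, and the difference detectable at this depth was not computed.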
